A study of Drosophila melanogaster with 3 samples.

Results

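The peaks described here were sites of the GFP-tagged Drosophila protein CG14710 that lay between 2 protein-coding genes transcribed away from each other. A peak was a member if its summit lay within 500 bp of a minus-strand transcription start site and of a plus-strand start site of 2 different protein-coding genes, with the minus-strand start at the lower coordinate. The authors kept 9194 peaks that passed a filter on reproducibility, the irreproducible discovery rate (IDR), and of these 1995 (21.7%) were members. They belonged to 1668 gene pairs, each member being assigned to the pair with the smallest summed distance to its summit, and to 3321 genes. The rule used positions only and no signal.

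Chromatin immunoprecipitation with an antibody against GFP, followed by sequencing, was done on whole embryos of mixed sex, 0 to 14 h old, from a transgenic line that stably carried CG14710 with GFP fused at the C-terminus. The study had 1 group of 3 biological replicates, with 1 peak list per replicate, a pooled list and the IDR list, on the dm6 assembly. No line without the tagged protein and no other stage was analysed here, so the comparisons are between divergent-pair peaks and other promoter peaks, and between gene pairs with and without a peak. Signal is the value of the authors' peak caller, its scale is not stated and read depth is unknown, so it served only to rank peaks within a list.

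Genes are divergent when they lie head to head on opposite strands, so that the sequence between their start sites serves as the upstream region of both. Divergent pairs are common in the compact Drosophila genome and are rich in genes that most cells use. Their promoters often carry the sequences recognised by DREF, BEAF-32 and M1BP, proteins of broadly active promoters and of domain borders, and CG14710 encodes a protein of the zinc-finger family with a zinc-finger-associated domain.

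The sequences near the summits of the strongest members are shown first, because the later results concern base composition and motifs there. These are the first 8 divergent-pair peaks by signal percentile averaged over the 3 lists, leaving out those on an arm whose sequence is not shown here. Each window holds the bases within 50 bp of the summit that lie between the starts, so the mRpL27/CG15435 and Uch/CG34174 windows, with summits outside the gap, do not hold the summit itself. The counts given later use the full 101 bp around each summit. They were read 5′ to 3′ on the plus strand of the RefSeq dm6 assembly, and capitals mark the searched motifs given later.
CG1317/CG8993: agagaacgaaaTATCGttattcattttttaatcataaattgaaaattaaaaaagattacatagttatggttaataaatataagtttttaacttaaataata
mRpL27/CG15435: ataaatctacgtttgtattttcaac
Uch/CG34174: atCGATAttagaaaccattagtgttg
Surf6/RhoGAP92B: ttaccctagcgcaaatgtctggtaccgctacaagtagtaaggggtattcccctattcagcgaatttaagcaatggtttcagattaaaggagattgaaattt
CG3038/G9a: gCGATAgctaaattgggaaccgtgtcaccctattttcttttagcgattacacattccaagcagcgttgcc
SNRPG/mthl1: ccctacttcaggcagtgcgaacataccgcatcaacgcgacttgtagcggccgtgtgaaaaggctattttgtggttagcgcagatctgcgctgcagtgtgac
Chro/Ssl1: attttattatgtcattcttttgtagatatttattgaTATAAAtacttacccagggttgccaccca
CG3744/CG11089: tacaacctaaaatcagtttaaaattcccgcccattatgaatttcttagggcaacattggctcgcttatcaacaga
The windows lay at chr3L:2371999-2372099, chr2L:4459704-4459728, chr2L:2214212-2214237, chr3R:19904900-19905000, chrX:245857-245926, chrX:16640786-16640886, chr3L:22879181-22879245 and chr3R:24876970-24877044, in the order printed. All lay between annotated transcript starts of the 2 genes. The share of A and T ranged widely, with 84.2% in the CG1317/CG8993 window and 45.5% in the SNRPG/mthl1 window. The BEAF-32 core CGATA, on either strand, was in 3 of the 8 windows, a TATA box in 1, and the DREF sequence TATCGATA in none.

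The gap of the tagged protein's own gene was a member. CG14710 and Jupiter, which encodes a microtubule-associated protein, start 184 bp apart on chromosome 3R, and the whole gap (chr3R:11619907-11620089, plus strand) is printed with the same motifs in capitals.
Jupiter/CG14710: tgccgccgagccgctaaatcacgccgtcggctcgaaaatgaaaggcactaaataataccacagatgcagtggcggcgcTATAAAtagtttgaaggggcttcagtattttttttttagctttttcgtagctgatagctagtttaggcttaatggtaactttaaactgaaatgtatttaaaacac
The summit lay 107 bp from the Jupiter start and 77 bp from the CG14710 start. Its signal was 1804 in the IDR list, at rank 627 of 9194, and 567, 543 and 706 in replicates 1, 2 and 3. The peak lay at the locus of the gene that was tagged, and the position of the tagging construct was not given in the sources used here. The only searched motif in this gap was the TATA box.

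A different kind of gap is shown by the 4 members with the highest signal among pairs at most 200 bp apart that held the DREF sequence between their starts, a set chosen after seeing the data. Capitals mark only TATCGATA, and the gaps lay at chr3R:21223585-21223703, chr3L:4138997-4139075, chr3R:4433896-4433964 and chr2L:5542315-5542479.
CG3337/Nelf-A: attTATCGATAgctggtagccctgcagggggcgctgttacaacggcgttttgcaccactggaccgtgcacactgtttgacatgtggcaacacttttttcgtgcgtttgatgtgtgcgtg
Rop/Ras64B: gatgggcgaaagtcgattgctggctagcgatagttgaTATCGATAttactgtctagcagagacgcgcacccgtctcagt
eIF3a/CG1074: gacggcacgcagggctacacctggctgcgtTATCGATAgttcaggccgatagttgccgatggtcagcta
Hel25E/Lam: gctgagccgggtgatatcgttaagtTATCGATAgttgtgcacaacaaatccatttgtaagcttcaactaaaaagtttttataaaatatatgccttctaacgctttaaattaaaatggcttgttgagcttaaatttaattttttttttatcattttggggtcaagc
CG3337/Nelf-A, whose plus-strand gene encodes a subunit of the pausing factor NELF, had a signal of 26380 in the IDR list and 9445, 7893 and 9143 in replicates 1, 2 and 3. The other pairs were far weaker. Signals in the IDR list were 1065 at Rop/Ras64B, 1012 at eIF3a/CG1074, which holds the gene of a translation initiation factor, and 987 at Hel25E/Lam, which holds the lamin gene.

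The 12 divergent-pair peaks that ranked highest on average were near the top of every replicate list. The first was between CG1317 and CG8993 on chr3L:2371327-2372760, with signals of 18455, 15312 and 24854 in replicates 1, 2 and 3. The start sites there were 260 bp apart, and the summit lay 110 bp from the CG1317 start and 150 bp from the CG8993 start. The next was at mRpL27, which encodes a mitochondrial ribosomal protein, and CG15435 (chr2L:4458154-4460438), with 18378, 15919 and 21770. Roc2, a RING subunit of cullin ubiquitin ligases, and Buffy, of the Bcl-2 family, shared a peak with 19726, 15082 and 17888. Uch, a ubiquitin hydrolase gene, and CG34174 shared one with 16712, 14102 and 19869. In these pairs replicate 2 had the lowest signal, which holds for all 12 in the plot of the named peaks, and signals are not scaled between lists.

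**Figure D1:**
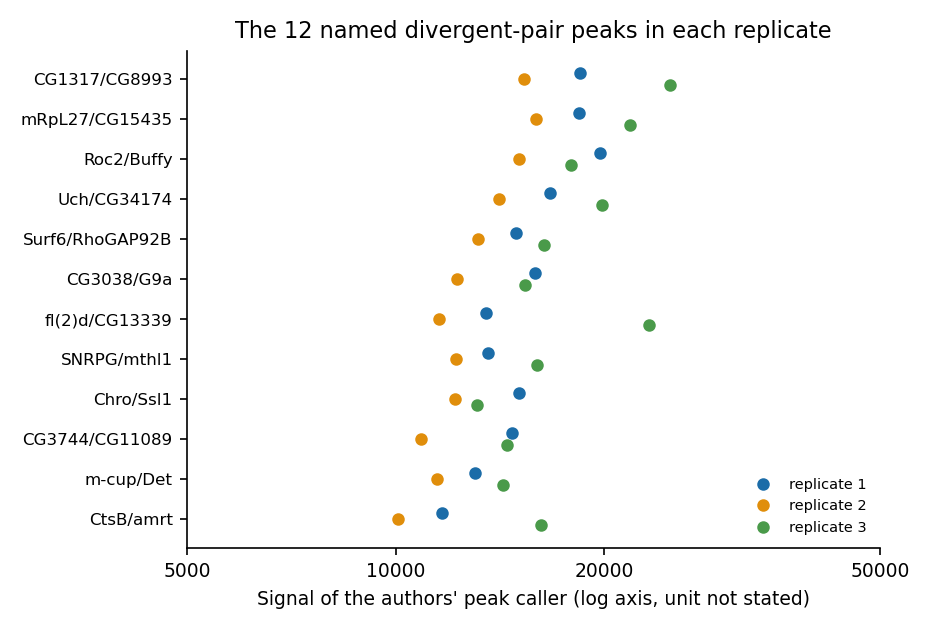
Signal of the authors' peak caller (log axis, unit not stated) at the 12 named divergent-pair peaks, with 1 point per replicate and the pairs in falling order of mean percentile. All points lie between 10080 and 24854, and replicate 2 is lowest at each peak.

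The other named peaks joined genes of unlike function. Surf6, of ribosome biogenesis, shared a peak with RhoGAP92B (44397 in the IDR list), and G9a, a histone methyltransferase gene, with CG3038 (43441). The gene of an m6A writer subunit, fl(2)d, shared a peak with CG13339 (48246). The Sm protein gene SNRPG was paired with the receptor gene mthl1 across 549 bp (41897). The chromatin protein gene Chro was paired with Ssl1, of the general factor TFIIH (40727), and the cathepsin gene CtsB with amrt (37980). The pairs CG3744/CG11089 and m-cup/Det had 40339 and 38808. In 10 of the 12, the summit lay between the 2 starts. It lay 25 bp past the plus-strand start at mRpL27/CG15435 and 24 bp below the minus-strand start at Uch/CG34174.

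Divergent pairs held a larger share of the promoter peaks than of the promoter sequence. Members were 39.0% of the 5113 IDR peaks within 500 bp of any protein-coding start site (95% Wilson interval 37.7% to 40.4%), while the bases that meet the rule were 10.6% of the bases in such windows. The other promoter peaks were 3026 near exactly 1 protein-coding gene, called single-gene promoter peaks below, and 92 near several genes that were not divergent. Among the 9194 strongest peaks taken from each replicate, the member share was 38.6%, 39.0% and 39.0% for replicates 1, 2 and 3. The mean was 38.9% ± 0.261 (SD, n = 3), which is 28.3 percentage points above the base share (two-sided exact permutation test over sign flips, p = 0.25, the smallest that 3 replicates allow). The base share counted all bases within 500 bp of a start alike. Summits had a median position 78 bp upstream of the nearest start at members and 86 bp at single-gene promoter peaks. How far this placement sets the difference was not tested. Of the members, 96 lay within 500 bp of starts of 3 or more protein-coding genes.

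By chromosome arm the member share of promoter peaks was 43.5% on 3R, 39.4% on 3L, 38.4% on 2L, 37.8% on 2R and 35.8% on X. On chromosome 4 it was 7 of 40 (17.5%, Wilson interval 8.75% to 32.0%). The intervals of 2L, 2R, 3L and X overlap, and that of 3R (40.7% to 46.3%) lies above that of X (32.7% to 39.0%). These intervals cover counting error only, since neighbouring peaks are not independent. The base share was computed over all arms together. How far the differences between arms follow the number of divergent pairs on each arm was not tested.

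Members were more frequent among strong peaks. Among the first 50 IDR peaks by signal 27 were members, of the first 500 it was 170 (34%) and of the first 2000 it was 673 (33.7%). Of the 5194 peaks at ranks 4001 to 9194, members were 763 (14.7%). The rise was not even, as members were 23% of the peaks at ranks 101 to 200. Single-gene promoter peaks were 21 of the first 50 and 90 (45%) of the first 200, where members were 69. They were 32.45% of the first 2000 and 32.9% of the whole list. Among promoter peaks alone the member share was 50% of those in the first 2000, against 39.0% in the whole list. The median IDR signal was 746 for members and 549 for single-gene promoter peaks. At the edge of the rule, the 27 members whose farther start lay 476 to 500 bp away had a median signal of 508, and the 29 peaks at 501 to 525 bp had 418.

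Each replicate gave members a higher rank than single-gene promoter peaks. A summit took the value of the highest replicate peak whose own summit lay within 100 bp, and its percentile is the percent of that replicate's peaks with a signal at or below it. The median percentile of members was 88.6, 90.8 and 90.0 in replicates 1, 2 and 3, against 85.1, 86.4 and 84.3 for single-gene promoter peaks. The difference was 4.53 ± 1.15 percentile points (SD, n = 3, exact permutation p = 0.25), positive in 3 of 3 replicates. Within the 50% of IDR peaks with the higher signal it was 0.899 ± 0.951, and replicate 1 there had -0.18 (exact permutation p = 0.5). A replicate summit within reach was found for 95.9% ± 0.351 of members and 94.6% ± 1.18 of single-gene promoter peaks.

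Members also had a match among the strongest peaks of a replicate more often, a measure that rests on the same signals. The IDR list was made from the replicate and pooled lists, so a match is not an independent recovery. In the 9194 strongest peaks of a replicate, 89.4%, 93.0% and 88.1% of members had a match, against 86.8%, 87.9% and 81.3% of single-gene promoter peaks. The difference was 4.83 ± 2.18 percentage points (SD, n = 3, exact permutation p = 0.25), and 0.532 ± 0.576 within the 50% of IDR peaks with the higher signal. Among the strongest of all 3 replicates were 1535 members (76.9%, Wilson interval 75.0% to 78.7%), against 66.3% of single-gene promoter peaks (64.6% to 67.9%) and 64.4% of all IDR peaks. In none of the 3 were 9 members.

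Signal varied with the distance between the start sites. Over the members this distance had a median of 290 bp, with quartiles of 168 and 413 bp, from 1 bp at Atg6/Pisd to 904 bp at CG10283/grnd. Members at 201 to 300 bp had a median percentile of 91.8, 93.6 and 93.6 in replicates 1, 2 and 3. Those at 1 to 100 bp had 86.2, 88.4 and 83.7, and those at 501 to 1000 bp had 82.6, 86.8 and 88.0. Members at 201 to 300 bp were thus highest in each replicate, and the mean of 93.0 ± 1.04 there stood above 86.1 ± 2.35 at 1 to 100 bp and 85.8 ± 2.82 at 501 to 1000 bp (SD, n = 3 each). At 201 to 300 bp lay 14 of the 46 members among the 100 strongest IDR peaks.

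**Figure D2:**
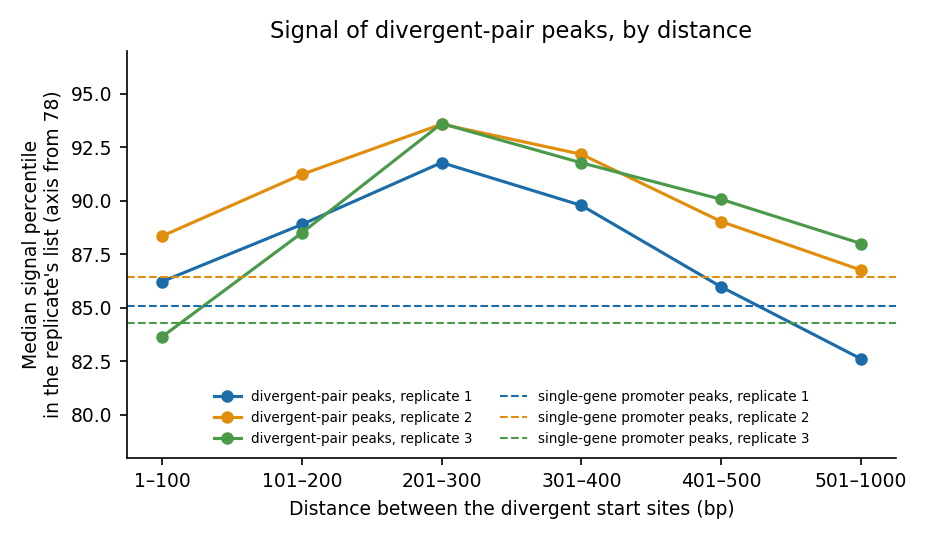
Median signal percentile of divergent-pair peaks in each replicate's list, by the distance between the start sites (bp), with dashed lines at the median of single-gene promoter peaks of the same replicate. The vertical axis starts at 78. All 3 lines peak at 201 to 300 bp, and fall below the dashed line of their own replicate at 1 to 100 bp in replicate 3 and at 501 to 1000 bp in replicate 1.

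Seen from the genes, most close divergent pairs held a peak. Of the 2630 divergent protein-coding pairs with starts at most 1000 bp apart, 1759 (66.9%, Wilson interval 65.1% to 68.7%) had an IDR summit within 500 bp of both starts. In the replicates it was 64.9%, 67.5% and 64.6%, with a mean of 65.7% ± 1.63 (SD, n = 3). Up to 500 bp apart it was 1561 of 1958 (79.7%). Beyond 500 bp the zone within reach of both starts shrinks, and 29.5% of the 672 pairs at 501 to 1000 bp had such a summit, while 63.1% had one within 500 bp of either start.

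Up to 500 bp the share with a peak was nearly level except at 101 to 200 bp. It was 82.3% of 429 pairs at 1 to 100 bp, 67.4% of 350 at 101 to 200 bp, 83.4% of 542 at 201 to 300 bp, 81.3% of 386 at 301 to 400 bp and 82.1% of 251 at 401 to 500 bp. The repeated histone genes, which lie in near-identical copies where the placement of reads is uncertain, made up 38 of the 350 pairs at 101 to 200 bp. None of the 42 pairs with such a copy had a peak (upper Wilson bound 8.38%). Histone genes outside this set did lie in pairs with a peak, as at CG14036/His3.3A, put/His4r and ball/His2Av. Without the repeated histone genes, a choice made after seeing the data, the share at 101 to 200 bp was 75.6% (Wilson interval 70.6% to 80.1%). This interval touched or overlapped those of the other 4 distances, which ranged from 76.9% to 86.3%.

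**Figure D3:**
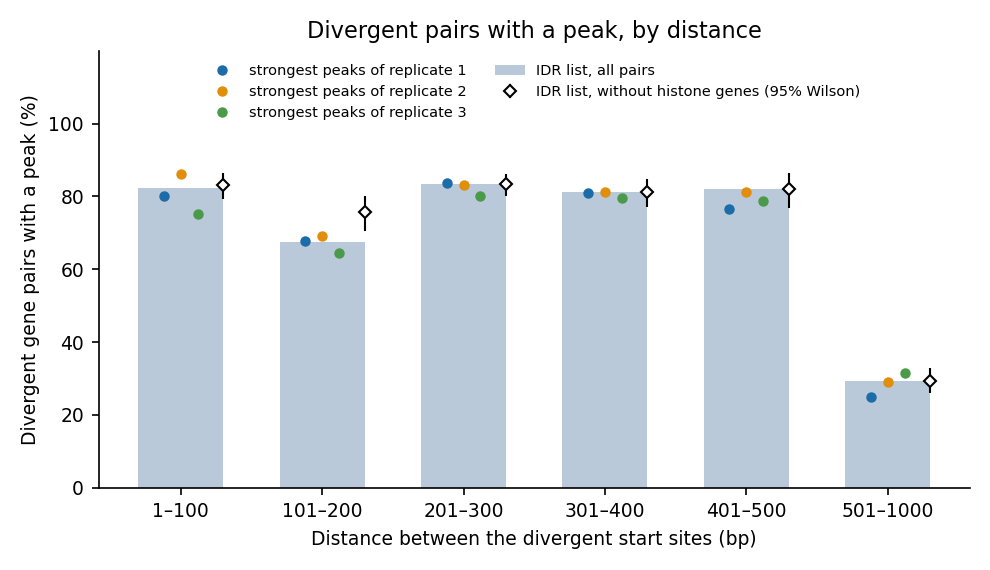
Percent of divergent protein-coding pairs with a summit within 500 bp of both starts, by the distance between the starts (bp). Bars are the IDR list and dots the 9194 strongest peaks of each replicate. Open diamonds are the IDR list without the repeated histone genes, with 95% Wilson intervals. The diamond at 101 to 200 bp is at 75.6% and the bar at 67.4%.

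Pairs of the same short distance were found with and without a peak. The shortest pair with one was Atg6/Pisd, a pair of an autophagy gene and a phospholipid enzyme gene whose starts are 1 bp apart on 3R. Its summit had a signal of 529 in the IDR list and a match in replicates 1 and 2, but none in replicate 3. Among the 6 shortest pairs without an IDR peak, CG4730/CG5039 also had starts 1 bp apart on 3R. The others were CG9263/CG16853 (5 bp), CG9921/Dsp1 (12 bp), CG10669/CG11902 (14 bp), Cyp4d1/CG3630 (16 bp) and CG4287/CG5516 (17 bp). At CG4730/CG5039, CG9921/Dsp1 and CG4287/CG5516 the pooled list and the full list of every replicate did hold a summit, so a summit was recorded there outside the IDR list. Of the 871 pairs without an IDR peak, 160 had such a pooled peak.

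Genes in divergent pairs carried promoter peaks more often than genes that start alone. A summit within 500 bp of a start was found for 3688 of 5032 genes in a pair (73.3%, Wilson interval 72.1% to 74.5%), against 2025 of 7982 genes with no other protein-coding start within 1000 bp (25.4%, 24.4% to 26.3%) and 42.6% of all protein-coding genes. A single summit can count for both genes of a pair.

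The gene groups of broadly used cell functions were rich in divergent pairs, and most of their paired members lay in a pair with a peak. Over all protein-coding genes 36.1% were in a divergent pair, and 3408 of those 5032 (67.7%) were in a pair with a peak. In protein synthesis, 58 of 73 mitochondrial ribosomal protein genes were in a pair and 55 of these had a peak, for cytosolic ribosomal protein genes it was 53 of 86 and 39, and for translation factors and tRNA synthetases 48 of 84 and 34. Among the listed genes, the highest signals there were at mRpL27/CG15435, at CG34015/eIF4H1 (36185), whose translation factor aids the eIF4A helicase, and at Art3/mRpS10 (7447). Lists were matched by gene name and can miss genes, so all list counts and rankings hold for listed genes only. The mitochondrial ribosomal protein gene bonsai was not in its list, and its pair Cdk9/bonsai had 34086. The cytosolic ribosomal pair RpS27/Nup37, which also holds a nuclear pore gene, was weaker, with 2566.

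In energy and protein turnover, 43 of 83 oxidative phosphorylation genes were in a pair and 36 of these had a peak. CycC/UQCR-C1 joins a Mediator cyclin and a subunit of respiratory complex III, with starts 26 bp apart, and had 7662, 6441 and 7995 in replicates 1, 2 and 3. The complex I gene ND-18, paired with pcm, had 13746 in the IDR list. For proteasome genes the counts were 26 of 48 in a pair and 21 with a peak, led by the regulatory particle genes in Rpn7/AP-2mu (21968) and CG11122/Rpt3 (20368). For peroxisome biogenesis 11 of 14 were in a pair and 9 had a peak, and for autophagy 16 of 20 and 12, with Taf5/Pex6 (2185) and Xe7/Atg17 (1887) highest.

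In RNA processing and the nucleus, 28 of 32 listed spliceosome genes were in a pair and 23 of these had a peak, with U2af50/PIG-Q highest in the list (2545). The Sm protein gene SNRPG was not in this list, and its pair SNRPG/mthl1 had a far higher signal (41897). For nuclear pore genes it was 19 of 24 and 17, with CG7997/Nup62 highest (21874). For DNA replication genes, cyclins and CDKs it was 34 of 58 and 29, with Cdk9/bonsai highest at 34086, a pair of a transcription elongation kinase and a mitochondrial ribosomal protein. For DNA repair it was 21 of 30 and 15, with Rad17/BigH1 highest (4349). Mediator, TFIID and TFIIH genes had 35 of 46 and 28, Polycomb and trithorax group genes 14 of 24 and 10, and insulator protein genes 10 of 18 and 8. The histone methyltransferase gene ash1 and the TFIID gene Taf6 shared a peak with 7569, 6980 and 11975 in the 3 replicates. Lists differ in size, and the Wilson interval of the share with a peak lay above 67.7% for mitochondrial ribosomal, oxidative phosphorylation, replication and nuclear pore genes.

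Some pairs joined 2 genes of the same machine. Taf10b and Taf10, paralogous TFIID genes with starts 45 bp apart, had a peak of 508, Pex16 and Pex14 (535 bp) had 670, and Ibf2 and Ibf1, which encode insulator factors that act together (463 bp), had 688. Dref, the gene of the factor that binds TATCGATA, was paired with RpL13 across 84 bp and had 1669. The pair insv/Elba2 at 690 bp, of boundary factor genes, had no peak, like most pairs so far apart. Of the 85 pairs with starts 651 to 700 bp apart, 18 (21.2%) had one.

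Gene groups of restricted expression held few members. Of 180 chemosensory receptor genes 26 were in a divergent pair and 2 of these had a peak, at Gr63a/Lamtor4 (495) and Ir60e/CG13585 (358), both far down the list at ranks 5153 and 7150. The Ir60e/CG13585 summit had a match in replicate 3 only. Of 118 cuticle protein genes 12 were in a pair and 0 had a peak (upper Wilson bound 24.2%). Of 32 segmentation and Hox genes 0 were in a divergent pair (upper Wilson bound 10.7%), so they could hold no member. The 3 pairs of 2 chemosensory genes (131, 183 and 634 bp apart) and the 4 pairs of 2 cuticle genes (447, 525, 974 and 982 bp) had no peak. Of all pairs, 79.7% had a peak up to 500 bp apart but only 29.5% at 501 to 1000 bp.

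Summits lay mostly between the starts, and farther from the middle in pairs more than 300 bp apart. Of the members 1618 (81.1%, Wilson interval 79.3% to 82.8%) had the summit between the 2 starts, and in the replicates it was 78.9%, 73.6% and 83.8%. The median distance to the nearest start was 90 bp. By distance between the starts, 40.5% of summits lay between them at 1 to 100 bp, where there is little room, and 88.8% at 201 to 300 bp. The summit was a median of 37.5 bp from the middle at 1 to 100 bp, 38.5 bp at 101 to 200 bp and 33.5 bp at 201 to 300 bp. It was 63 bp at 301 to 400 bp and 115 bp at 401 to 500 bp, where the nearest start was about as far. At 501 to 1000 bp it was 100.5 bp. Of all members 46.5% had the summit within 50 bp of the middle. The median position relative to the nearest start was 78 bp upstream at members and 86 bp upstream at single-gene promoter peaks.

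In pairs with several summits, the weaker ones leaned to higher coordinates. Over all members the median offset from the middle was 12 bp toward the plus-strand start, and with only the strongest summit of each pair it was 2.5 bp. In the 326 pairs with 2 or 3 summits, the next strongest lay at the higher coordinate in 317 (97.2%), at a median spacing of 204 bp and never under 199 bp, with a median signal 0.526 times that of the strongest. The replicates gave 98.2%, 98.1% and 97.4%. The same held over the whole list, where among all 865 neighbouring IDR summits within 500 bp the left one was higher in 95.8%. The caller that made the lists is not named in the sources used here, and whether its way of calling summits gives this was not tested. The number of members and the offsets include these weaker summits.

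**Figure D4:**
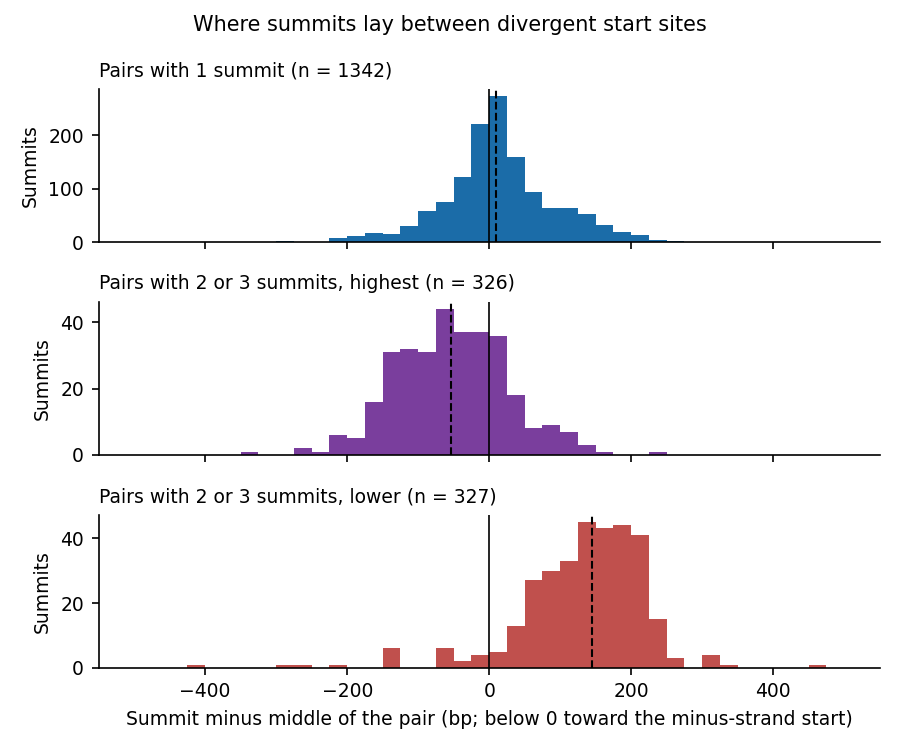
Offset of the summit from the middle of the pair (bp, above 0 toward the plus-strand start) for pairs with 1 summit, for the strongest summit of pairs with 2 or 3, and for their weaker summits, as counts in bins of 25 bp. Dashed lines are medians, at 9, -53.5 and 145 bp.

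The sequence at member summits was richer in A and T than that at single-gene promoter summits. Windows of 101 bp centred on the summit held 66.4% A and T at members, 63.5% at single-gene promoter peaks and 50.5% in flanks 500 bp from the member summits. In replicates 1, 2 and 3 the difference between members and single-gene promoter peaks was 3.35, 3.21 and 2.13 percentage points (mean 2.89 ± 0.668, exact permutation p = 0.25). The share was 69.4% at pairs 201 to 300 bp apart and 59.7% at pairs 1 to 100 bp apart. Of the 5 words of 8 letters with the largest excess at members over single-gene promoters on 2L, 2R and 4, all were made of A and T, and on the other arms ATTTTTAA was at 6.93% of member summits, against 5.11% of single-gene promoter summits.

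Among 10 searched motifs, several differed between members and single-gene promoter peaks. Exact matches on either strand within 50 bp of the summit were counted. The TATA box TATAAA lay at 23.4% of member summits, 18.7% of single-gene promoter summits and 6.02% of flanks, and the replicate difference was 4.52 ± 1.71 percentage points. It was at 22.8% of all IDR peaks, close to the member share. In the 100 bp before the start of all protein-coding genes it was at 20.2%. Motif 6, GGTATTTT, a core promoter sequence of broadly active genes, lay at 3.01% of member summits and 4.59% of single-gene promoter summits (difference -1.27 ± 0.148). The GAF sequence GAGAGAG, of regulated promoters, was at 6 of 1995 member summits (0.301%), 1.09% of single-gene promoter summits and 1.45% of flanks (difference -1.26 ± 0.369). The BEAF-32 core CGATA, which is contained in TATCGATA, lay at 30.5% of member summits, 30.2% of single-gene promoter summits and 11.0% of flanks, and the replicate difference was 1.95 ± 0.272. Each of these differences had the same sign in 3 of 3 replicates (exact permutation p = 0.25 each). In the IDR list the CGATA share of single-gene promoter summits lay within the Wilson interval of members (28.5% to 32.6%). In the 100 bp before the start of all protein-coding genes, motif 6 was at 3.23%, GAGAGAG at 2.74% and CGATA at 28.4%. TATAAA is made of A and T alone, and its share moves with the base composition given above; their relation was not tested.

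The DREF sequence did not separate members from single-gene promoter peaks. TATCGATA was at 7.42% of member summits (Wilson interval 6.35% to 8.65%) and 7.60% of single-gene promoter summits, against 0.351% of flanks and 6.30% of the 100 bp before the start of all protein-coding genes. In the replicates the difference was 0.206, 0.991 and -0.266 percentage points (mean 0.310 ± 0.635, exact permutation p = 0.75), and its sign changed with the setting. Motif 1, GGTCACACT, bound by M1BP, was at 3.71% of member summits, 4.30% of single-gene promoter summits and 0.100% of flanks. The E-box CAGCTG was at 6.37%, 6.71% and 6.07%, and the ZIPIC sequence CAGGGCTG at 1.70%, 1.85% and 0.201%. In the 100 bp before the start of all protein-coding genes, motif 1 was at 2.29%, CAGCTG at 7.67% and CAGGGCTG at 1.26%. The Zelda sequence CAGGTAG and the E-box CACGTG were at 0.401% and 0.952% of member summits. The differences of the ZIPIC sequence (-0.0930 ± 0.0663) and of CACGTG (-0.143 ± 0.0850) were small, with one sign in 3 of 3 replicates (exact permutation p = 0.25 each).

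For several motifs the share at the summit moved with the distance between the starts, while the share at the starts themselves did so less. Within 50 bp of the summit the DREF sequence was at 15.2% of members from pairs 1 to 100 bp apart and 3.47% of those 201 to 300 bp apart, motif 1 at 7.01% and 2.65%, and CAGCTG at 14.6% and 4.49%. The BEAF-32 core CGATA was at 44.2% and 22.9%. The TATA box ran the other way, at 12.8% and 29.8%. The median distance from summit to nearest start was 25.5 bp in the pairs 1 to 100 bp apart and 94 bp in those 201 to 300 bp apart. Within 100 bp of either start, counted once per pair, the DREF sequence was at 24.2% of pairs 1 to 100 bp apart and 23.0% of pairs 201 to 300 bp apart, motif 1 at 19.2% and 21.9%, and CAGCTG at 33.0% and 36.0%. CGATA was at 67.0% and 71.5%. Motif 6 and the TATA box did differ at the starts, with motif 6 at 6.73% of pairs 1 to 100 bp apart and 13.7% of pairs 201 to 300 bp apart, and TATAAA at 36.0% and 54.4%. These windows overlap in the closest pairs, which therefore offer fewer bases.

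**Figure D5:**
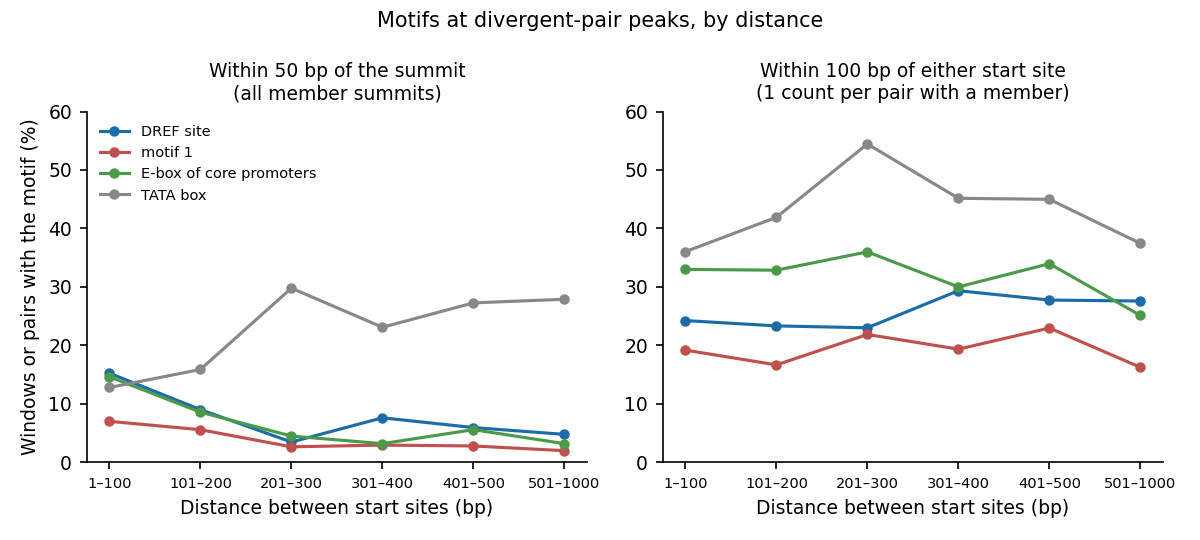
Percent of member summits with a motif within 50 bp (left), and percent of pairs with the motif within 100 bp of either start (right), by the distance between the starts (bp). On the left the DREF line is at 15.2% at 1 to 100 bp and 3.47% at 201 to 300 bp; on the right it is at 24.2% and 23.0%.

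Pairs with a peak differed in sequence from pairs without one. The 101 bp at the middle of pairs up to 500 bp apart were searched, with the repeated histone genes left out. Motif 1 was at 53 of 1561 pairs with a peak (3.40%, Wilson interval 2.61% to 4.41%), against 2 of 347 pairs with no peak near either start (0.576%, 0.158% to 2.08%). The BEAF-32 core was at 28.7% (26.5% to 31.0%), against 19.9% (16.0% to 24.4%). The DREF sequence was at 7.11% (5.94% to 8.49%), against 4.61% (2.86% to 7.36%), with intervals that overlap. The TATA box was at 24.5% (22.4% to 26.7%), against 14.4% (11.1% to 18.5%), and the share of A and T was 67.5%, against 62.9%. The Zelda sequence ran the other way, with 1 of 1561 pairs with a peak (0.0641%, 0.0113% to 0.362%), against 4 of 347 without (1.15%, 0.449% to 2.93%). The intervals of the other searched motifs overlapped, with the GAF sequence in 3 pairs with a peak (0.192%) and 2 without (0.576%).

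Where a motif has a direction, some lay along the nearest gene more often than against it. Motif 1 ran with the nearest gene in 50 of 78 matches (64.1%, Wilson interval 53.0% to 73.9%) and motif 6 in 40 of 62 (64.5%, 52.1% to 75.3%). The ZIPIC sequence did so in 8 of 34 (23.5%, 12.4% to 40.0%), and the TATA box in 313 of 617 (50.7%, 46.8% to 54.7%). Relative to the nearest start, with negative values upstream, the median motif 1 match lay at -11.5 bp and the median TATA box match at -112.5 bp. A match describes the letters only, and binding of the tagged protein to any of these words was not tested.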

How the data were processed

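ChIP-seq peak lists of CG14710-GFP embryos (1 group, 3 replicates) were used. Per the text files deposited with the lists, the authors made each replicate list from alignments to dm6 and 1 control, and the IDR list from the replicate and pooled lists. The signal of each peak and the offset of its summit from the interval's start were deposited by the authors, with the signal's scale not stated. The aligner, the caller and the cut-off of the IDR step were not given in the sources used here. Each replicate list held 30000 peaks, so a site missing from a list is only outside its 30000.

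Summits, counted from 1, were compared with RefSeq gene models on dm6 (19603 start sites of 13944 protein-coding genes). Peaks were compared between replicates by percentile, matched by summits within 100 bp rather than by intervals, because summits in 1 broad interval would share a value. The strongest peaks of a replicate are its 9194 highest, as many as the IDR list holds. Flanks lay 500 bp to the left or right of a summit, with the side set by a seeded draw. Tests are two-sided exact permutation tests over sign flips of the 3 replicate differences, which cannot give a p below 0.25 and so cannot pass 0.05. Replicate values are mean ± SD. Intervals are 95% Wilson intervals and cover counting error only.

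Named were both genes of the 12 peaks with the highest mean percentile (1 per pair), the 2 pairs with the highest signal for each of 17 gene lists, the shortest and longest pairs with a peak, the pair of CG14710, the 6 shortest pairs without a peak, and the 5 words of 8 letters in largest excess. One pair that this rule names is not reported here. Listed pairs named beyond these were chosen after their values were seen. The members, lists and motifs were chosen with earlier results of these data known. Alternatives were windows of 250 and 1000 bp, 1 start per gene, the 50% of peaks with the higher signal, other matching and comparison groups, all peaks of each list, other motif windows, unmasked summits, other pair rules and each replicate left out. The classing and matching steps were tested on simulated data. Python 3.11.15, numpy 2.4.6, pandas 2.3.3, scipy 1.17.1 and matplotlib 3.10.9 were used.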

Additional observations from a re-analysis of the deposited data

How the results depend on the processing

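Direction was kept under all 11 alternatives for the percentile difference between members and single-gene promoter peaks (0.899 to 6.12) and for the difference in the share within the strongest peaks (0.532 to 7.97 percentage points), and under all 9 for the share of promoter peaks minus the share of bases (16.7 to 35.5). The lowest values of the first 2 came with the upper 50% of peaks by signal. With each replicate left out in turn, these 3 differences ranged from 3.92 to 5.07, from 3.82 to 5.98 and from 28.2 to 28.4. The share of pairs with a peak ranged from 64.7% to 66.2%, and the share of summits between the starts from 76.2% to 81.3%.

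The number of members was 1220 with 250 bp in place of 500 bp, and 1668 with 1 summit per pair. The share of pairs with a peak, 65.7% over the replicates, was 63.3% with 250 bp, 58.6% with 1000 bp and 78.4% for pairs up to 500 bp apart. It was 74.4% with a peak near either start and 66.7% without the repeated histone genes. The share of summits between the starts, 78.8%, was 84.6% for the upper 50% of peaks by signal and 68.8% over all peaks of each list. The TATCGATA difference of 0.310 percentage points became -1.43 with 250 bp, -0.745 with 1 start per gene, -0.527 for the upper 50% by signal and -0.543 with 1 summit per pair. It ranged from -0.0302 without replicate 2 to 0.599 without replicate 3, and was 2.36 with 100 bp on each side of the summit and 2.32 over all peaks of each list. The cause of these changes was not tested. The settings with 1 summit per pair and without the repeated histone genes were added after seeing the data. The tests compare members and single-gene promoter peaks within each replicate, and with 1 group of samples there was no replicate block to add. Read depth is unknown, so what it limits could not be given.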

Other observations

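The word in largest excess at the strongest members did not repeat its excess on other arms. AATTTAAA was at 15.5% of the 71 members of rank 500 or better on 2L, 2R and 4, against 6.16% of the weaker members there. On the remaining arms it was at 5.05% of 99 such members, against 8.34% of the weaker ones. Of the 5 words in largest excess only TAAAAAAA was again at a higher share there, at 8.08%, against 5.94%, with 12.7% and 4.73% on 2L, 2R and 4. The DREF sequence was at 4.71% of member summits of rank 500 or better and 11.0% of members in the lower-ranked 50% of the IDR list.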
